A study of Mus musculus with 6 samples.

Results

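DNA replication and G1/S genes were followed in dental epithelial organoids (DEOs) grown in 4 media. The set was fixed by name as 40 genes that encode replication origin and helicase proteins, the sliding clamp and its loader, replicative polymerases, enzymes of Okazaki fragment maturation and deoxynucleotide supply, E2F1 and the E-type cyclins, and chromatin replication factors. Of the 47360 gene symbols in the table, 38 belonged to the set. Cdt1 and Gins2 were not analysed here.

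DEOs were grown for 14 days in Matrigel from dental epithelial cells of the apical incisor buds of 9-week-old wild-type female C57BL/6J mice. All media contained Wnt3a-conditioned medium at 50%, R-spondin1-conditioned medium at 5%, EGF at 100 µg per ml, N-acetylcysteine, the ROCK inhibitor Y27632 at 10 µM and Noggin, an antagonist of bone morphogenetic proteins, at 200 µg per ml. No further signalling factor or inhibitor was added to +N. The +ND, +NF and +NFD media were supplemented with the γ-secretase inhibitor dibenzazepine (DBZ), with FGF10 at 100 µg per ml, and with both, respectively. DBZ blocks the cleavage that releases the active part of Notch receptors, and its dose was 10 µM per the labels, whereas the methods text of the study gives the same figure in mmol per litre. Media with the Notch ligand Jagged1 (+NJ, +NFJ) were not analysed here. Each medium has 1 library, how many animals or wells each library holds is not given in the sources used here, and differences between media therefore carry no replicate check and no p-value.

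Replication starts at origins that are marked by the origin recognition complex. In G1, CDC6 and CDT1 load the ring of MCM proteins onto these origins, and at the G1/S transition cyclin E and its kinase, with CDC45 and GINS, turn the ring into an active helicase. E2F transcription factors switch on most of these genes once the retinoblastoma protein is inactivated, so that their transcripts are a common readout of cells entering S phase. In the mouse incisor, the stem cells of the cervical loop give rise to transit-amplifying cells that divide before they become ameloblasts.

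Transcript levels were read as the FPKM values that the authors estimated with Cufflinks, in which the fragments of a gene are divided by its length and by the size of the library. A ratio between media is log2((FPKM + 1)/(FPKM + 1)), taken where the higher of 2 libraries reached 1 FPKM, and 2-fold was the limit for calling a gene higher or lower. Where 4 levels follow each other with no medium named, they are those of +N, +ND, +NF and +NFD in that order. All 38 genes were above an FPKM of 1 in every library. The lowest level was that of Orc1 in +N, at 1.5 FPKM, or about 124 fragments by the smallest steps between low values if all of them came from its longest transcript. Counting error alone would be about 8.99% at that level and smaller for the other genes, which does not include variation between cultures.

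E2F motifs were searched in RefSeq promoter windows (GRCm38.p6), which span 250 bases before to 50 bases after a transcription start, because E2F is known as a shared regulator of these genes. The letters searched were TTTCCCGC and TTTGGCGC on both strands, and each motif was counted whether or not it overlapped another. Windows were matched for 31 of the 38 genes, and Mcm4, Gins1, Gins4, Rfc2, Prim2, Pole and Ccne2 had no entry. Of these 31 genes, 9 held at least 1 match (Cdc6, Gins3, Mcm3, Mcm5, Mcm6, Mcm7, Pola1, Pold1 and Rfc3), or 29%, against 1.80% of all 27025 genes with a window and 3.40% of the 9822 genes that reached an FPKM of 1 in a library. Counted by window, 25% of the 36 windows of the set and 1.56% of all 32851 windows held a match. The matches that lie wholly before the start follow in windows of 30 bases, read 5′ to 3′ on the strand of the gene with the motif in capitals.
Cdc6, chr11:98908002-98908031, plus strand: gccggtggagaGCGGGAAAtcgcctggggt
Gins3, chr8:95633507-95633536, plus strand: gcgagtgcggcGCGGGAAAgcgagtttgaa
Mcm5, chr8:75109349-75109378, plus strand: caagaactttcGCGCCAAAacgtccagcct
Mcm6, distal, chr1:128359797-128359826, minus strand: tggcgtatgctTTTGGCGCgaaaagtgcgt
Mcm6, proximal, chr1:128359734-128359763, minus strand: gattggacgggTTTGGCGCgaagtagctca
Mcm7, chr5:138172030-138172059, minus strand: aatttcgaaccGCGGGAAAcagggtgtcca
Pola1, chrX:93632275-93632304, minus strand: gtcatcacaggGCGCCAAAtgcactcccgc
The motif started 138 bases before the RefSeq start in Cdc6 and Pola1, 41 in Gins3, 149 in Mcm5, 110 and 47 in Mcm6 and 165 in Mcm7. For Cdc6, Gins3 and Mcm7 the RefSeq start lies within the gene as GENCODE annotates it. Of the MCM ring genes with a window, Mcm3, Mcm5, Mcm6 and Mcm7 held a match and Mcm2 held none. The CCAAT box, searched as CCAAT on both strands, was in the windows of 19 of the 31 genes, or 61.3%, against 41.1% of all genes with a window and 42.7% of those that reached 1 FPKM. The element TTTGAA, known from promoters of late cell cycle genes and searched on both strands, was in those of 4 genes, or 12.9%, against 20.2% of all and 14.4% of those that reached 1 FPKM. A match of letters is not a measured binding site, and a gene without a match can hold sites of other letters or outside its window.

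The epithelial label of the libraries was checked with marker lists. The basal keratin genes Krt5 and Krt14 were at 4984 FPKM or more in every library, and all 8 basal markers exceeded 1 FPKM, with sums in the order +N, +ND, +NF and +NFD of 21277, 12710, 17649 and 14942 FPKM. The 14 suprabasal and cornified markers summed to 1096, 3330, 246 and 996 FPKM, and the 10 fibroblast markers to 172, 160, 109 and 453, with Col1a1 between 50.3 in +NF and 153 in +NFD. The 10 macrophage markers summed to 716, 588, 504 and 459 FPKM, while the pan-leukocyte gene Ptprc did not exceed 1.01 FPKM. All 6 endothelial markers were under 1 FPKM. A separate list of 6 epithelial markers, which includes Krt5 and Krt14, exceeded 1 FPKM in every library. Relative to +N, 5 of these 6 were lower in +ND, 5 in +NF and 6 in +NFD. Their median log2 ratios were -1.17, -0.25 and -0.68, against 0.10, 0.12 and 0.18 over all genes. Epcam, Cdh1, Krt14 and Cldn7 were at least 2-fold lower in +ND. In +NFD these were Cdh1, Krt14 and Cldn7, and in +NF there were none. The basal sum was mostly Krt14 and Krt5, and its other members did not share its order: relative to +N, 4 of the 8 basal markers were higher in +ND and 6 in +NF and in +NFD, with median log2 ratios of 0.10, 0.27 and 0.19. The suprabasal and cornified sum also joined markers of opposite direction, and Krtdap made up 1982 of its 3330 FPKM in +ND. Relative to +N, 9 of these 14 markers rose by 2-fold or more in +ND and 3 fell by that much. In +NFD 5 of 14 rose and 4 fell past the same limit, and in +NF 0 of 13 rose and 9 fell. Cdsn had log2 ratios of 4.61 (+ND) and 3.22 (+NFD), and Krt13 had -1.75 and -3.42. Lyz2 made up 528 of the 716 FPKM of the macrophage sum in +N. Of the macrophage markers compared with +N, 3 of 10 were higher in +ND, 0 of 9 in +NF and 2 of 9 in +NFD, and Cd68 measured 23.5, 36.2, 16.2 and 32.9 FPKM. All 10 fibroblast markers were higher in +NFD than in +N. The part of these cell types in the levels of replication genes was not tested. By the smallest steps between low values, depth relative to +N was 0.798 (+ND), 1.05 (+NF) and 1.05 (+NFD).

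All 38 genes had their lowest level in +N. Across all 13748 genes that reached 1 FPKM in a library, 41.8% were lowest in +N. The highest level was in +NFD for 25 genes of the set, in +NF for 8, in +ND for 5 and in +N for 0, against 32.6%, 21.2%, 30% and 16.2% of all genes. The order +N, +ND, +NF and +NFD from low to high was shown by 21 of the 38 genes, against 8.84% of all genes and 21.2% of the 5748 genes that were lowest in +N. Summed over the set, FPKM came to 675, 1019, 1171 and 1226, which is 0.0901%, 0.152%, 0.169% and 0.180% of all FPKM in the library. The median level in the set came to 13.0, 20.0, 21.8 and 24.0 FPKM. In bulk RNA, fewer cells in S phase and less of these transcripts per cell cannot be told apart.

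**Figure D1:**
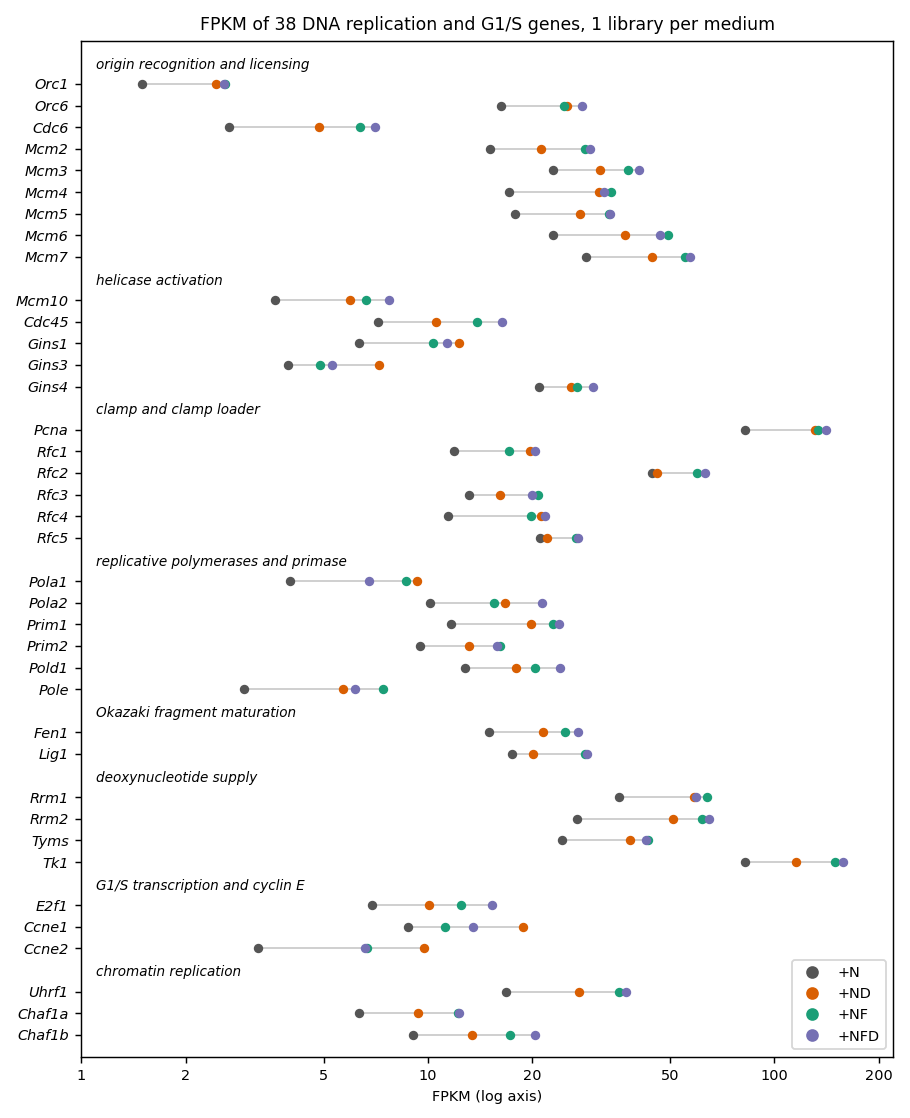
FPKM (log axis) of the 38 genes, ordered by role, with 1 point per medium and a grey line from the lowest to the highest value. The dark grey +N point is the leftmost in every row, and the orange +ND point is the rightmost for Gins1, Gins3, Pola1, Ccne1 and Ccne2.

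The origin and licensing genes were higher in each supplemented medium. Cdc6, which encodes the ATPase that loads the MCM ring and maps to GRCm38 chromosome 11 (98907801 to 98923940), measured 2.67, 4.85, 6.36 and 7.04 FPKM. Its log2 ratio relative to +N was 0.67 (+ND), 1.00 (+NF) and 1.13 (+NFD). The values with FGF10 were thus above those without it. Orc1, which encodes the largest subunit of the origin recognition complex, was at 1.5 FPKM in +N and 2.45, 2.59 and 2.58 in +ND, +NF and +NFD. Orc6, another subunit of that complex, measured 16.2, 25.2, 24.7 and 27.9 FPKM. For Orc1 and Orc6 the 3 supplemented media lay close together and apart from +N. Exons of Orc6 overlap those of Vps35 on the opposite strand, which was at 57.0, 79.3, 60.4 and 53.1 FPKM. Without a stated strand setting, fragments of this overlap cannot be assigned.

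The 6 genes of the MCM ring kept similar proportions to each other in the 4 libraries. Mcm2 measured 15.1, 21.2, 28.4 and 29.4 FPKM. Mcm6, at chromosome 1 (128331590 to 128359664), was at 23.0, 37.1, 49.3 and 46.6 FPKM, with log2 ratios relative to +N of 0.67, 1.07 and 0.99. Mcm7 was at 28.6, 44.3, 55.4 and 56.9 FPKM. For the MCM genes +ND lay between +N and the media with FGF10, whose values were close to each other. Among them, Mcm4 had the most similar levels in the supplemented media, with 17.2, 31.2, 33.8 and 32.3 FPKM. Summed over the 6 genes, FPKM came to 125, 193, 238 and 239. FPKM is scaled to length, so that subunits can be compared, and the highest subunit was between 1.89 times the lowest in +N and 2.09 times in +ND. Mcm7 had the highest and Mcm2 the lowest level in all 4 libraries. Mcm7 made up 22.9% of the sum in +N and 23.8% in +NFD, and Mcm5 made up between 14.0% and 14.3% in the 4 libraries. Other shares moved more. Mcm3 made up 18.5% in +N and 15.9% in +NF, Mcm4 13.8% in +N and 16.2% in +ND, and Mcm6 18.4% in +N and 20.7% in +NF.

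The genes for helicase activation were less uniform. Cdc45, a component of the active helicase, measured 7.17, 10.5, 13.8 and 16.4 FPKM, and its +NFD level exceeded that of +N by 1.09 on the log2 scale. Mcm10, an initiation factor, was at 3.63, 5.98, 6.64 and 7.72 FPKM. Both genes had their highest level with FGF10 and DBZ together. GINS is a complex of 4 subunits, of which 3 had values. Gins1 measured 6.32, 12.3, 10.3 and 11.3 FPKM. Gins3 was at 3.95, 7.22, 4.90 and 5.30 FPKM, with log2 ratios relative to +N of 0.73 (+ND), 0.25 (+NF) and 0.35 (+NFD). Gins1 and Gins3 were thus highest with DBZ alone. Gins4 was the most abundant of the 3, at 20.9, 25.9, 27.0 and 29.9 FPKM, and made up 67.1% of their sum in +N and 57.0% in +ND.

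Pcna, which encodes the sliding clamp and maps to chromosome 2 (132249162 to 132253314), measured 82.1, 131, 134 and 141 FPKM. Its log2 ratio relative to +N was 0.67, 0.70 and 0.78, so that the supplemented media differed little from each other. The pseudogene Pcna-ps2, which can share fragments with Pcna, was at 1.31 FPKM in +N and 2.09 in +NFD. The genes of the clamp loader split by subunit. Rfc2 was at 44.3 FPKM in +N and 45.8 in +ND, and at 59.97 in +NF and 63.2 in +NFD, and Rfc5 was at 21.1 and 22.0 without FGF10 and at 26.7 and 27.1 with it. The log2 ratios of Rfc2 and Rfc5 in +ND relative to +N, 0.05 and 0.06, were the lowest of the set in that comparison. Rfc4 instead measured 11.4, 21.2, 19.9 and 21.7 FPKM, with a log2 ratio of 0.84 in +ND. Exons of Rfc4 and Rfc5 overlap those of Eif4a2 and Wsb2 on the opposite strand. Eif4a2 was at 94.3 FPKM in +N and 124 in +ND, and Wsb2 was at 60.2 and 41.7. Exons of Rfc2 overlap those of Lat2, which was at 2.59 and 1.80 FPKM. Without a stated strand setting, fragments of these overlaps cannot be assigned. Rfc1, the large subunit, was at 11.9, 19.7, 17.2 and 20.4 FPKM, and Rfc3 at 13.2, 16.2, 20.7 and 19.9. Rfc2 was the most abundant subunit in every library, with 43.5% of the summed RFC level in +N and 36.7% in +ND.

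**Figure D2:**
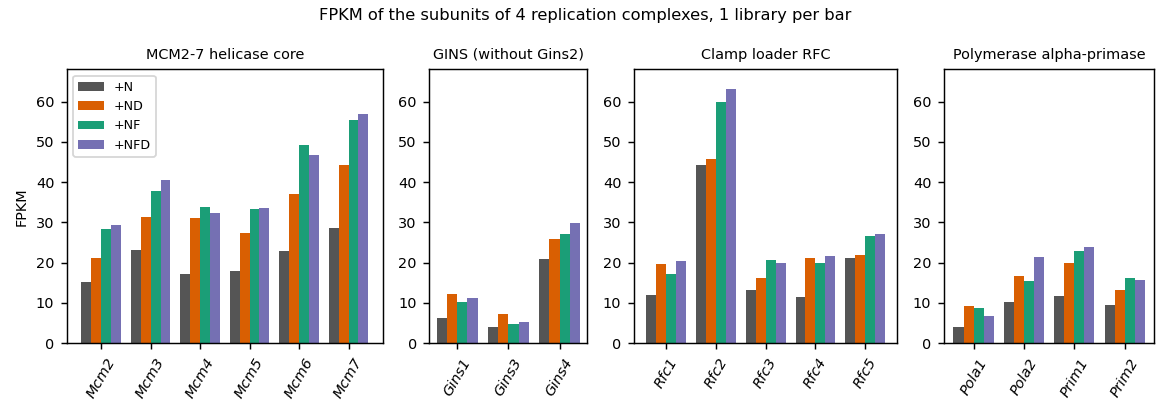
FPKM (linear axis from 0) of the subunits of the MCM ring, GINS, the clamp loader RFC and polymerase α-primase, with 1 bar per library. Rfc2 and Rfc5 are nearly level between +N and +ND, whereas the MCM subunits have a higher +ND bar and still higher +NF and +NFD bars.

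DNA polymerase α-primase makes the primers of both strands, and its genes differed in which medium was highest. Pola1, which encodes the catalytic subunit and maps to the X chromosome (93304767 to 93632155), measured 4.01, 9.31, 8.63 and 6.76 FPKM. Its log2 ratio relative to +N was 1.04 (+ND), 0.94 (+NF) and 0.63 (+NFD), so that the level with both additions was below that with either. Pola2, the regulatory subunit, was at 10.1, 16.7, 15.5 and 21.3 FPKM, and was highest with both additions. The primase genes Prim1 and Prim2 were at 11.7 and 9.49 FPKM in +N and at 23.9 and 15.8 in +NFD. Pola1 was the lowest of the 4 subunits in every library and made up 15.8% of their sum in +ND and 10.0% in +NFD. Pole and Pold1 encode the catalytic subunits of the polymerases used mainly on the leading and on the lagging strand. Pole measured 2.94, 5.70, 7.40 and 6.15 FPKM, and Pold1 was at 12.8, 17.9, 20.4 and 24.0. Pole was at least 2-fold higher in +NF than in +N, with a log2 ratio of 1.09.

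Okazaki fragments are trimmed by FEN1 and sealed by DNA ligase I. Lig1 measured 17.5, 20.1, 28.4 and 28.9 FPKM, a log2 ratio of 0.19 with DBZ alone and 0.67 with FGF10 alone. Fen1 was at 14.97, 21.5, 24.9 and 27.2 FPKM. The genes of deoxynucleotide supply were among the most abundant of the set. Rrm2, the regulated subunit of ribonucleotide reductase, at chromosome 12 (24708241 to 24714146), measured 27.0, 51.1, 62.0 and 64.8 FPKM. Its log2 ratios relative to +N, 0.90, 1.17 and 1.23, were the highest of the set in +NF and in +NFD. This rank depended on the 1 added to each FPKM. Without it, the +NF and +NFD levels of Rrm2 were 2.29 and 2.40 times that in +N. Those of Cdc6 were 2.38 and 2.63 times, and those of Pole 2.52 and 2.09 times. Rrm1, the large subunit of the same enzyme, was at 35.7, 58.5, 64.0 and 59.3 FPKM. Rrm2 made up 43.1% of the sum of both subunits in +N, 46.6% (+ND), 49.2% (+NF) and 52.2% (+NFD). Tk1, the thymidine kinase of S phase, was at 82.4, 116, 149 and 158 FPKM and was the most abundant gene of the set in +NF and +NFD, and nearly level with Pcna in +N. Tyms, which encodes thymidylate synthase, was at 24.3 FPKM in +N and between 38.2 and 43.1 in the supplemented media.

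The E-type cyclin genes had their highest level with DBZ alone. Ccne1, at chromosome 7 (38097984 to 38107534), measured 8.76, 18.8, 11.2 and 13.5 FPKM. Its log2 ratio relative to +N was 1.02 (+ND), 0.32 (+NF) and 0.57 (+NFD). Ccne2, at chromosome 4 (11191351 to 11204779), measured 3.23, 9.78, 6.68 and 6.57 FPKM, with the highest log2 ratio of the set in +ND relative to +N, 1.35. Exons of Ccne2 overlap those of Ints8 on the opposite strand, which was at 13.1 FPKM in +N and 22.3 in +ND, and without a stated strand setting fragments of the overlap cannot be assigned. E2f1, which encodes the activating transcription factor of the set, followed another order, with 6.90, 10.1, 12.5 and 15.3 FPKM. E2f1 was at least 2-fold higher only in +NFD among the 3 comparisons with +N, at a log2 ratio of 1.05.

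The chromatin replication genes had the order of E2f1. Uhrf1, which recruits the maintenance DNA methyltransferase to new DNA, measured 16.8, 27.3, 35.7 and 37.4 FPKM, with log2 ratios relative to +N of 0.67, 1.05 and 1.11. Chaf1b, a subunit of the histone chaperone CAF-1, was at 9.05, 13.4, 17.2 and 20.4 FPKM, a log2 ratio of 1.09 in +NFD. Chaf1a, the large subunit, was at 6.33, 9.36, 12.2 and 12.3 FPKM. Each of the 3 genes was higher in both media with FGF10 than in both media without it. Exons of Chaf1a overlap those of Ubxn6 on the opposite strand by up to 1277 nt. Ubxn6 was at 31.3, 24.5, 27.3 and 29.7 FPKM, and without a stated strand setting fragments of the overlap cannot be assigned.

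In +NF relative to +N, all 38 genes were higher, against 65.7% of the 13090 genes compared, with a median log2 ratio of 0.76 in the set and 0.12 over all genes. Cdc6, Mcm6, Pole, Rrm2 and Uhrf1, or 5 of the 38, were at least 2-fold higher, against 2.76% of all genes, and 0 were at least 2-fold lower, against 2.44%. The lowest ratio was that of Gins3, at 0.25. By role, the median log2 ratio was 0.87 over 9 origin and licensing genes, 0.63 over 5 helicase activation genes, 0.56 over 6 clamp and clamp loader genes, 0.81 over 6 polymerase and primase genes and 0.84 over 4 genes of deoxynucleotide supply. The limit of 1.5-fold was reached by 29 of the 38, against 9.97% of all genes. The 9 genes with an E2F motif in their promoter window had a median of 0.86, and the 22 genes with a window but no match had 0.76.

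In +ND relative to +N, all 38 genes were higher, against 58.2% of the 13173 genes compared, with a median log2 ratio of 0.61 in the set and 0.10 over all genes. Pola1, Ccne1 and Ccne2 were at least 2-fold higher, against 5.88% of all genes, so that 3 of 38 is near the share of all genes. None was at least 2-fold lower, against 5.29%. At the limit of 1.5-fold, 22 of the 38 were higher, against 17.3% of all genes. The median over the 3 genes E2f1, Ccne1 and Ccne2 was 1.02, and that over Fen1 and Lig1 was 0.34. In +NFD relative to +N, all 38 genes were higher, against 69.1% of 13358 genes, with a median of 0.85 in the set and 0.18 over all genes. Cdc6, Cdc45, Pola2, Rrm2, E2f1, Uhrf1 and Chaf1b were at least 2-fold higher, or 7 of 38, against 5.85% of all genes, and 31 were at least 1.5-fold higher, against 16.1%. None was at least 2-fold lower, against 4.03%. The genes with an E2F match in their window and those with a window but no match had medians of 0.86 and 0.86. These 3 comparisons share the +N library, so that a low value in it enters all of them.

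**Figure D3:**
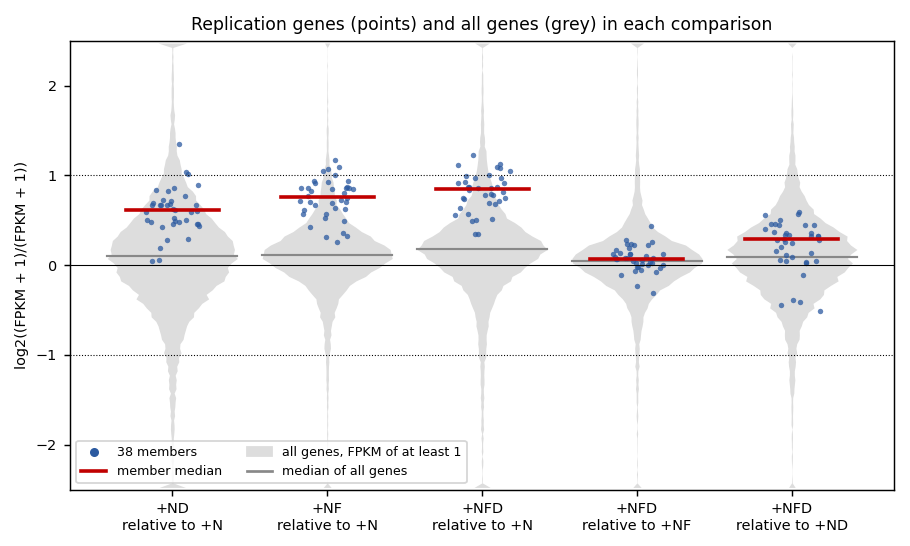
Log2 ratios of the 38 genes (blue points, red line at their median) and of all genes that reach 1 FPKM in the higher library (grey shape, values beyond 2.5 drawn at the edge, grey line at their median) in 5 comparisons, with dotted lines at the 2-fold limits. The points lie above 0 in the 3 comparisons with +N, with medians of 0.61, 0.76 and 0.85, and around 0 in +NFD relative to +NF.

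The 2-fold counts depended on the scale of the libraries, since most genes were listed slightly higher in the supplemented media. When ratios were centred on the median of all genes, 1 gene stayed at least 2-fold higher in each comparison with +N, which was Ccne2 in +ND and Rrm2 in +NF and in +NFD. Of all genes, 4.67% (+ND), 1.89% (+NF) and 4.04% (+NFD) were at least 2-fold higher after centring. The 38 genes were still all higher in +NF and in +NFD after centring, and 36 were higher in +ND, where Rfc2 and Rfc5 were below 0, with Rfc2 lowest at -0.06. Centring by its definition puts as many of all genes above 0 as below it. The median of the set after centring was 0.51 (+ND), 0.65 (+NF) and 0.67 (+NFD). Over all genes, centring changed the 2-fold calls from 774 higher and 697 lower to 615 and 842 in +ND, from 361 and 319 to 248 and 412 in +NF, and from 782 and 538 to 540 and 714 in +NFD. The most abundant gene of all, BC037156, took 15.6% of all FPKM in +N, 12.0% in +NF, 5.17% in +ND and 5.71% in +NFD. When libraries were rescaled after leaving out the 100 most abundant genes, the median of the set relative to +N was 0.53 (+ND), 0.76 (+NF) and 0.80 (+NFD).

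The addition of DBZ was compared without FGF10 (+ND relative to +N) and with it (+NFD relative to +NF), in pairs that share no library. With FGF10 present, 28 of the 38 genes were higher with DBZ, against 57.2% of 13349 genes, and the median log2 ratio was 0.07 in the set and 0.05 over all genes. After centring, which puts as many of all genes above 0 as below it, 23 of the 38 were higher, with a set median of 0.02. No gene of the set was at least 2-fold higher or lower, against 3.72% and 2.69% of all genes. The largest ratio was that of Pola2, at 0.44, and the lowest was that of Pola1, at -0.31. The same genes without FGF10 had ratios of 0.67 and 1.04. Ccne2 had a ratio of 1.35 without FGF10 and -0.02 with it, Ccne1 had 1.02 and 0.25, and Gins1 had 0.86 and 0.12. The 10 genes that were lower in +NFD than in +NF, as were 42.8% of all genes, were Orc1, Mcm4, Mcm6, Rfc3, Pola1, Prim2, Pole, Rrm1, Tyms and Ccne2. When libraries were scaled to 8 housekeeping genes, 36 of the 38 were higher in +NFD than in +NF and the median of the set was 0.28, beside 0.25 over all genes.

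**Figure D4:**
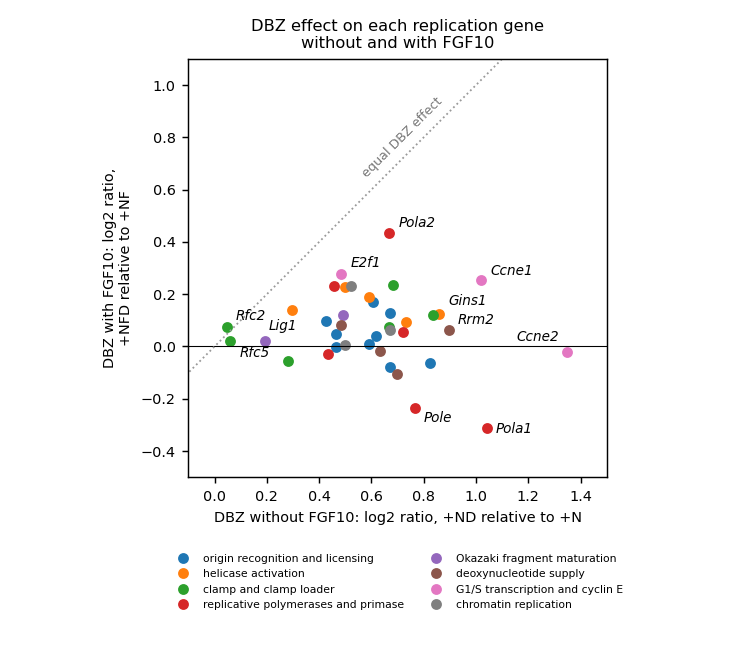
Log2 ratio for DBZ without FGF10 (horizontal axis, +ND relative to +N) and with FGF10 (vertical axis, +NFD relative to +NF) for the 38 genes, coloured by role, with a dotted line where both would be equal. Of the 38 points, 37 lie below the dotted line and Rfc2 lies above it, with vertical values from -0.31 for Pola1 to 0.44 for Pola2.

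FGF10 was compared in the same way without DBZ (+NF relative to +N) and with it (+NFD relative to +ND). With DBZ present, 33 of the 38 genes were higher with FGF10, against 59% of 13293 genes, with a median log2 ratio of 0.29 in the set and 0.09 over all genes. After centring, which puts as many of all genes above 0 as below it, 28 of the 38 were higher, with a set median of 0.19. No gene of the set passed 2-fold in either direction, against 3.39% higher and 3.11% lower among all genes. The highest ratios were those of Cdc45, at 0.59, Chaf1b, at 0.57, and E2f1, at 0.56, which had ratios of 0.86, 0.86 and 0.77 without DBZ. The 5 genes that were lower in +NFD than in +ND, as were 41% of all genes, were Gins1, Gins3, Pola1, Ccne1 and Ccne2, with ratios of -0.11, -0.38, -0.41, -0.45 and -0.51. Without DBZ these 5 genes had ratios from 0.25 for Gins3 to 0.94 for Pola1.

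The difference between the DBZ effect with FGF10 and that without it equals the difference between the corresponding FGF10 effects. It was below 0 for 37 of the 38 genes, against 51.9% of 13748 genes, with a median of -0.48 in the set and -0.02 over all genes. It ranged from -1.37 for Ccne2 and -1.35 for Pola1 to 0.03 for Rfc2. A low value in +N lowers this difference, and all 38 genes were lowest in +N, against 41.8% of all genes. The share over all genes is therefore not a like background. Of the lists described below, 45 of 48 other replication and S phase genes had a difference below 0. The same held for 12 of 12 other E2f and Rb family genes and 20 of 20 mitosis genes. The medians of these lists were -0.51, -0.51 and -0.94. The difference draws on all 4 libraries, each of which is single.

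The single additions were set against each other after the values had been seen. In +ND, 9 of the 38 genes were higher than in +NF, against 46.7% of 13303 genes, with a median log2 ratio of -0.24 in the set and -0.04 over all genes. These were Orc6, Gins1, Gins3, Rfc1, Rfc4, Pola1, Pola2, Ccne1 and Ccne2. The largest ratio was that of Ccne1, at 0.70, and the smallest of these 9 was that of Orc6, at 0.03. The lowest was that of Lig1, at -0.48, and Mcm2 and Mcm6 were each at -0.40.

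A list of 48 other replication and S phase genes, all of them above an FPKM of 1 in every library, was examined beside the set. Of these, 46 were higher in +ND than in +N, 45 in +NF and 46 in +NFD, with median log2 ratios of 0.56, 0.63 and 0.68, against 58.2%, 65.7% and 69.1% of all genes. At least 2-fold higher were 5 (+ND), 3 (+NF) and 7 (+NFD), against 5.88%, 2.76% and 5.85% of all genes, and 0 were at least 2-fold lower in any of the 3. Orc4, a subunit of the origin recognition complex, measured 19.5, 43.5, 18.7 and 18.5 FPKM, so that the higher level was limited to DBZ alone. Orc2, of the same complex, was at 7.001, 15.03, 11.9 and 11.3 FPKM. Dbf4, the activator of the kinase CDC7 that fires origins, was at 9.09, 21.1, 16.1 and 15.01 FPKM, and Cdc7 itself was at 2.19, 5.34, 4.70 and 5.44. Pole2, a subunit of polymerase ε, measured 6.25, 15.8, 12.9 and 13.9 FPKM. Orc4, Orc2, Dbf4 and Pole2 were highest with DBZ alone. Rpa1, the large subunit of the single-strand binding protein, was at 30.2, 48.4, 50.6 and 65.1 FPKM, and Pold2 was at 18.7, 27.3, 32.1 and 42.5. Rpa1 and Pold2 were thus highest with both additions. Clspn, which encodes the checkpoint mediator Claspin, was at 3.22, 6.15, 8.003 and 8.48 FPKM, and had a log2 ratio relative to +N of 1.17 in +NFD. Ccna2, the cyclin of S phase and G2, measured 20.2, 46.2, 42.5 and 38.5 FPKM.

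Among 12 other genes of the E2f and Rb families, 10 were higher in +ND than in +N, 11 in +NF and 11 in +NFD, against 58.2%, 65.7% and 69.1% of all genes. Rb1, which encodes the retinoblastoma protein, measured 7.54, 21.02, 11.8 and 11.2 FPKM, a log2 ratio of 1.37 in +ND. E2f2, an activating member, was at 1.23, 3.65, 1.91 and 2.96 FPKM. Both exceeded 2-fold in +ND, where 5.88% of all genes did. By the same ratio, 0 of the 12 were at least 2-fold higher in +NF or +NFD, against 2.76% and 5.85% of all genes. The 1 added to each FPKM lowers the ratio of genes near 1 FPKM, and that of E2f2 in +NFD was 0.83 on the log2 scale. E2f3, another activating member, was at 12.2, 11.2, 11.1 and 6.70 FPKM, a log2 ratio of -0.78 in +NFD. E2f7, also near 1 FPKM in +N, was at 1.29, 2.91, 3.42 and 2.68 FPKM. Its log2 ratios relative to +N were 0.77, 0.95 and 0.68.

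Mitosis genes, a list of 20, gave a different picture for DBZ in the presence of FGF10. All 20 were higher than in +N in each supplemented medium, against 58.2%, 65.7% and 69.1% of all genes, with median log2 ratios of 0.71 (+ND), 0.97 (+NF) and 0.77 (+NFD). In +NFD relative to +NF, 2 of the 20 were higher and the median was -0.20, beside 28 of 38 and 0.07 for the replication set and 57.2% and 0.05 for all genes. Mki67, the gene of the proliferation antigen Ki67, measured 8.94, 15.8, 24.1 and 18.05 FPKM, and Ccnb1, the mitotic cyclin, was at 21.7, 47.5, 46.2 and 40.1. The difference between the lists was not tested.

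**Figure D5:**
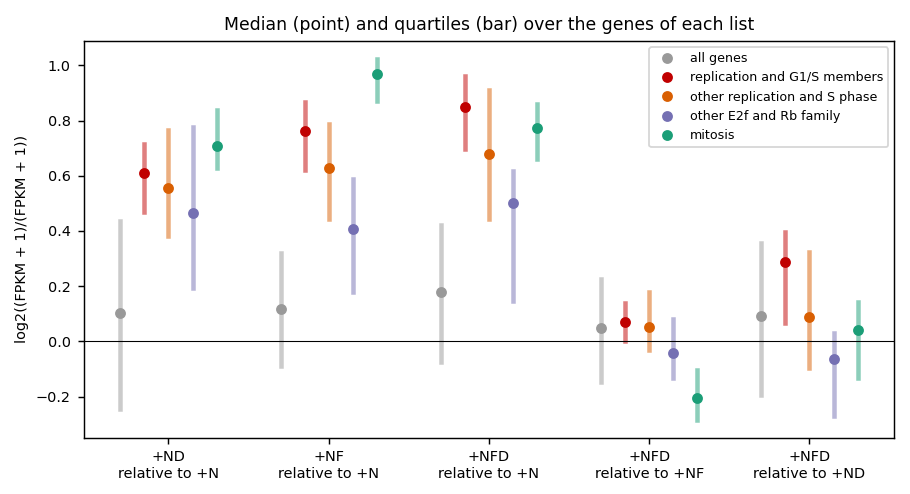
Median (point) and quartiles (bar) of the log2 ratios of all genes, the 38 replication and G1/S genes, the other replication, E2f and Rb family genes, and mitosis genes in 5 comparisons. In +NFD relative to +NF the replication set has a median of 0.07 and the mitosis list one of -0.20.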

How the data were processed

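Bulk RNA-seq of DEOs was analysed with 1 library for each of 4 media. The authors deposited FPKM that Cufflinks estimated from TopHat2 2.1.1 alignments to GRCm38. Per the submitters' notes, FastQC 0.11.9 and Trim Galore 0.6.5 served for quality control and trimming. The annotation release and strand setting are not given in the sources used here. Exons of 11 of the 38 genes overlap a protein-coding gene on the opposite strand in GENCODE M21, so that fragments can be shared.

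Entries of the same symbol were summed, and no gene of the set had several. Ratios, the filter and the 2-fold limit are given with the results. Read totals were not used. The value of 1 fragment was the lowest peak of FPKM multiplied by length over 8367 genes with a single transcript of at least 1000 nt in GENCODE M21. Any gene of the set could be named. Genes of the other lists were named where they differed at least 2-fold from +N or were the defining marker of a list. E2f3, E2f7, Ints8, BC037156, B2m, Lyz2, Cd68, Pcna-ps2, Eif4a2, Wsb2, Lat2, Vps35 and Ubxn6 were chosen after their values were seen. The members and lists were chosen with earlier results of these data known. Alternatives changed the pseudocount, the filter, the scaling and the treatment of symbols with several entries. On simulated data for +NF relative to +N with 12950 genes, all 200 genes changed 4-fold were recovered with the correct sign, with 0 false calls. The simulated noise was small and the change was well past the 2-fold limit, so that this result checks the calculation only. It does not measure the error of the calls in these libraries. Python 3.11.15, numpy 2.4.6, pandas 2.3.3 and matplotlib 3.10.9 were used.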

Additional observations from a re-analysis of the deposited data

Results flagged for a closer look

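With DBZ, 10 of the 38 genes had ratios of opposite sign without and with FGF10, against 38.1% of 13748 genes, and with FGF10, 5 had ratios of opposite sign without and with DBZ, against 44.0% of all genes. Both shares of the set were below those of all genes. Since all 38 genes were above +N, these are the genes that were lower in +NFD than in +NF or than in +ND. They are marked because the direction of an effect differed between the 2 backgrounds, and the difference was not tested, since each medium has 1 library. For 2 of these genes the effects differed by more than 2-fold: the ratio with the other factor minus that without it was -1.35 on the log2 scale for Pola1 and -1.37 for Ccne2, for DBZ and for FGF10 alike, since both are the same combination of the 4 values.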

How the results depend on the processing

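No paired analysis was possible because each medium has 1 library, and for the same reason no replicate could be left out. The median log2 ratio of the set relative to +N, which was 0.61 in +ND, 0.76 in +NF and 0.85 in +NFD, was 0.66, 0.83 and 0.91 with a pseudocount of 0.1 and 0.66, 0.83 and 0.91 without one. It was 0.50, 0.64 and 0.70 with upper-quartile scaling, 0.51, 0.65 and 0.67 after centring, and 0.68, 0.75 and 1.03 when scaled to housekeeping genes. Without the 100 most abundant genes it was 0.53 in +ND and 0.80 in +NFD. With a minimum of 5 FPKM it was 0.79 in +NF and 0.86 in +NFD. The median in +NFD relative to +NF was 0.027, 0.022, 0.015 and 0.28 with upper-quartile scaling, centring, rescaling without the 100 most abundant genes and housekeeping scaling, and in +NFD relative to +ND it was 0.23, 0.19, 0.32 and 0.42 in the same order. The latter was 0.30 with a pseudocount of 0.1 and 0.30 without one. The number of genes of the set at least 2-fold higher than in +N was 1 in each of the 3 media with upper-quartile scaling and with centring, and 1 in +ND without the 100 most abundant genes. Over all genes the shares in +ND, +NF and +NFD were 4.89%, 1.98% and 4.57% with upper-quartile scaling. With centring they were 4.67%, 1.89% and 4.04%, and without the 100 most abundant genes 5.03% in +ND. In +NFD the number in the set was 12 with a pseudocount of 0.1, 12 without one and 21 with housekeeping scaling, against 7. The shares of all genes there were 9.51%, 9.57% and 8.83%, against 5.85%. Of 15 single ratios past 2-fold, 3 stayed past it with upper-quartile scaling and 3 with centring. With the 100 most abundant genes left out 11 stayed, and with housekeeping scaling 14. Their sign could not show a dependence, since the scaling shifts were small beside a log2 ratio of 1, and 0 changed sign. Levels were lowest in +N for 36 genes with upper-quartile scaling and when the 100 most abundant genes were left out, and for 38 with housekeeping scaling. Housekeeping scaling changed the 2-fold calls over all genes from 782 higher and 538 lower to 1189 and 439 in +NFD relative to +N, from 497 and 359 to 642 and 282 relative to +NF, and from 450 and 414 to 632 and 339 relative to +ND, where centring gave 345 and 506. Upper-quartile scaling gave 260 and 408 in +NF and 610 and 679 in +NFD relative to +N. One of the 8 housekeeping genes, B2m, measured 1112, 311, 1125 and 236 FPKM in +N, +ND, +NF and +NFD. Counts of 2-fold differences rest on single libraries, whose variation between cultures is unknown.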
